A study of Mus musculus with 4 samples.

Results

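The 84 gene rows described here are those of the cytosolic ribosomal proteins, taken by symbol from the 23284 rows of 4 RNA-seq libraries of mouse macrophages grown from bone marrow. Symbols starting with Rpl or Rps and a number were taken, as were Rpsa, Rplp0, Rplp1 and Rplp2, while S6 kinase genes and rows marked as pseudogenes were left out. They comprise 31 proteins of the small subunit, 43 of the large subunit, 3 of the stalk and 7 paralogs (Rpl3l, Rpl7l1, Rpl10l, Rpl22l1, Rpl39l, Rps27l and Rps4y2), so that 77 rows form the core. The rule itself reads symbols and no values.

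The 4 groups had 1 library each: Spic−/− macrophages with LPS, Spic−/− macrophages without LPS, Spic+/+ (control) macrophages with LPS and Spic+/+ macrophages without LPS. Every culture had first received hemin for 18 h, at 40 µM by the protocol and the design text, while the description of each sample writes mM in place of µM; LPS was then given at 100 ng/ml for 4 h. By its title the knockout is conditional, and the labels name neither the allele nor a Cre driver. Hemin is oxidised heme, LPS is the bacterial ligand of TLR4, and Spi-C, a relative of PU.1, is a transcription factor of the ETS family whose gene is switched on by heme in macrophages. The series asks which TLR-dependent genes are expressed less when Spi-C is present.

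Each ribosome holds 1 copy of nearly every ribosomal protein, except the acidic stalk proteins Rplp1 and Rplp2, which are present as dimers. Mammalian ribosomal protein mRNAs are short, abundant and long-lived, and start with a pyrimidine run, the 5′ TOP motif, through which mTOR signalling controls their translation more than their amount. Mammalian genomes also hold many intronless copies of these genes, made by reverse transcription of the mRNAs, so that a short read can match several places.

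The deposited values were FPKM, fragments scaled by transcript length and library size, which allow levels of different genes to be set side by side. Without a replicate there is no measure of spread between cultures, so no test was run and every ratio below compares single libraries. By an estimate from the steps between low FPKM values, 1 FPKM stood for 8.0 fragments per kilobase in knockout cells with LPS, 12.8 in knockout cells without LPS, 10.5 in control cells with LPS and 15.5 in control cells without LPS. The shallowest library, knockout with LPS, had 51.6% of the depth of the deepest. Intervals below are exact (Clopper-Pearson) 95% intervals from these estimated fragments and cover counting error only. Spic itself was at 80.8 FPKM in knockout cells with LPS and 14.98 without, against 406 in control cells with LPS and 53.1 without, and the deleted part of the gene is not given in the labels. Macrophage markers were present in every library (8 of the 10 listed had a row, all at 1 FPKM or more), and B cell, T or NK cell, erythroid and dendritic cell markers summed to at most 2.197 FPKM in any library.

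Ribosomal protein transcripts were among the most abundant in every library. Their FPKM summed to 69695 in knockout cells with LPS and 62044 without, against 70142 in control cells with LPS and 61696 without. The median member was at 878 FPKM in knockout cells with LPS and 781 without, against 867 in control cells with LPS and 751 without. Sums and medians were thus higher in both LPS libraries, and the genotypes lay close together. At least 70 of the 84 rows were at 300 FPKM or more in each library.

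The share of all summed FPKM went the other way. It was 8.51% in knockout cells with LPS and 11.8% without, against 9.52% in control cells with LPS and 12.3% without. The FPKM of all other rows summed to 749537 in knockout cells with LPS and 463304 without, against 666675 in control cells with LPS and 438427 without. Fewer members were also among the 100 highest rows with LPS: 17 in knockout cells with LPS and 40 without, against 20 in control cells with LPS and 42 without. A bulk library cannot separate a change in RNA per cell from a change in the kinds of cells present.

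**Figure D1:**
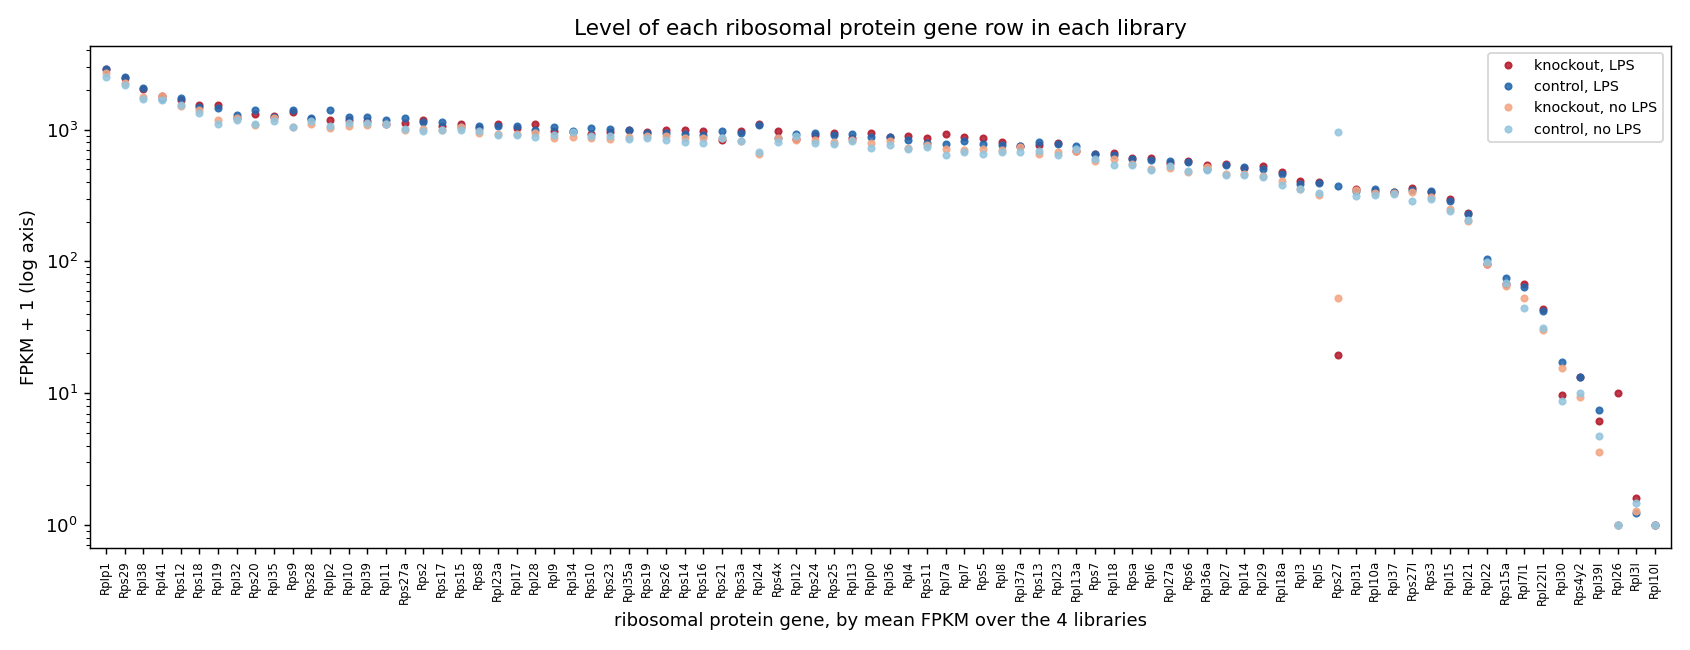
FPKM + 1 on a log axis for each of the 84 ribosomal protein rows, ordered by mean FPKM, with 1 point per library. Most rows lie at 300 FPKM or more with the 4 libraries close together, whereas Rps27 spans 18.4 to 962 FPKM and Rpl26 and Rpl30 lie far below other core members.

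Among the highest members were the stalk protein Rplp1 and several of the smallest ribosomal proteins. Rplp1, an acidic stalk protein that recruits elongation factors, was at 2905 FPKM in knockout cells with LPS and 2690.0 without, against 2880.3 in control cells with LPS and 2509.6 without. Rps29, a zinc-binding protein of the small subunit, was at 2468 FPKM in knockout cells with LPS and 2279 without, against 2525 in control cells with LPS and 2169 without. Rpl38, Rpl41 and Rps12 followed by mean level; Rpl38 is required in mouse embryos for translation of certain Hox mRNAs, and Rpl41 is the shortest of the ribosomal proteins. The Rplp1 row was the first of the 84 and the Rps29 row the second by mean level over the libraries. The transcripts of Rps29 (390 bases) and Rpl38 (364 bases) are short, so their levels depend strongly on the length correction, which was not tested.

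The lowest core rows stood far below that range. Rps15a, a small-subunit protein, was at 67.0 FPKM in knockout cells with LPS and 64.2 without, against 73.5 in control cells with LPS and 67.1 without. Rpl22 was at 94.0 FPKM in knockout cells with LPS and 94.9 without, against 103 in control cells with LPS and 97.6 without. Both rows were low in every library, with little difference between libraries. Lower still were Rpl30 and Rpl26, and in knockout cells Rps27, which are described next.

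All 3 rows have near-identical copies elsewhere in the genome. Rps27 encodes a zinc-binding protein of the small subunit (GRCm38, the build also called mm10, chr3:90212522-90213651, minus strand, 4 exons in GENCODE vM21). Its 255-base coding sequence was found without a single difference in a gene of 1 exon, Gm9846 in the files and Rps27rt in GENCODE, at chr9:114982366-114982739, minus strand. The capitals mark the 5 bases on each side of the 3 exon junctions in the coding sequence, the places where a read from the spliced Rps27 mRNA must be split against the genome but a read from the intronless copy is not.

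Rps27: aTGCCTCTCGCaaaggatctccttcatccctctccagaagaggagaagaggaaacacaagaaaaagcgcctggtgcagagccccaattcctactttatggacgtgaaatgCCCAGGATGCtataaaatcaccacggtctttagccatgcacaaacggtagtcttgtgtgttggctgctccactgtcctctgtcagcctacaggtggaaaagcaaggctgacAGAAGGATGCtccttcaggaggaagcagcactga

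Rpl26, Rpl30 and Rpl34, all of the large subunit, have near-identical intronless copies as well, and for Rpl26 and Rpl34 these are shown here. Windows of 120 bases of the coding sequence follow, each around the first difference, with the differing base in capitals. Rpl26 (chr11:68901583-68906989, plus strand) is shown with the processed pseudogene Gm15772 (chr5:3236431-3236868, plus strand). Rpl34 (chr3:130726831-130730398, minus strand) is shown with Rpl34-ps1 (chr6:71124610-71124963, plus strand).

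Rpl26: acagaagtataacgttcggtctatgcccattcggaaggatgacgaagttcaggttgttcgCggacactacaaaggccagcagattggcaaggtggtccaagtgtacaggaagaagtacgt
Gm15772: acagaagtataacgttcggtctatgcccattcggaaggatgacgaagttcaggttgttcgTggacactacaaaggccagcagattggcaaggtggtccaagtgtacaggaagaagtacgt
Rpl34: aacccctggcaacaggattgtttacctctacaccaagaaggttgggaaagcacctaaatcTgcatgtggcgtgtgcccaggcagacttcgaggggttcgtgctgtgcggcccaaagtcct
Rpl34-ps1: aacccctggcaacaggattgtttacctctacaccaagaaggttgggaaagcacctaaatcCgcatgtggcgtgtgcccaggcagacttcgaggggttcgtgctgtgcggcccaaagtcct

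Counted from 1 at the first base of the coding sequence, with the member's base first, the differences were C177T and T288C in the copy of Rpl26, and T132C and C318G in the copy of Rpl34. The identity over the coding sequence was 99.5% for Rpl26 and 99.4% for Rpl34. All 4 copies have 1 exon, against 4 exons in Rps27, Rpl26 and Rpl30 and 5 in Rpl34.

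The Rps27 row carried the largest genotype ratios of the family. The Rps27 row was lower in knockout cells at both LPS states, while its copy row was higher in knockout cells without LPS and nearly level between the genotypes with LPS. Rps27 was at 18.4 FPKM in knockout cells with LPS and 51.8 without, against 370.0 in control cells with LPS and 962 without. Gm9846 was at 2007 FPKM in knockout cells with LPS and 1874 without, against 1938 in control cells with LPS and 966 without. The order of the 4 libraries in the Rps27 row is thus nearly the reverse of that in the copy row. The sum of the rows was 2026 FPKM in knockout cells with LPS and 1926 without, against 2308 in control cells with LPS and 1927 without, a level beside those of Rps29 and Rpl38.

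By the Rps27 row alone, the log2 ratio of (FPKM + 1), knockout over control, was −4.25 with LPS and −4.19 without, and the ratio of LPS over no LPS was −1.44 in knockout cells and −1.38 in control cells. For the summed rows the same ratios were −0.19, 0.00, 0.07 and 0.26, so the LPS ratios changed sign. Sums here and below add FPKM as deposited, without allowance for any difference in length between the rows, and are approximate. The Rps27 row made up 0.911% of the sum in knockout cells with LPS and 2.69% without, against 16.03% in control cells with LPS and 49.9% without. How the authors' software divided fragments between the rows was not tested, and a difference between genotypes in the Rps27 gene itself cannot be told apart from a difference in this division.

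The Rpl26 row was at 8.96 FPKM in knockout cells with LPS and was listed at 0 in knockout cells without LPS and in both control libraries. Rpl26 lies next to the peptide exit tunnel, is part of every ribosome and, in human cells, also binds p53 mRNA. Its copy row, Gm15772, was at 1411 FPKM in knockout cells with LPS and 1243 without, against 1430.1 in control cells with LPS and 1237 without. The copy row stood at the level of an ordinary core member in all 4 libraries, and the member row at or near 0. Summed, the 2 rows gave log2 ratios of 0.19 for LPS in knockout cells, 0.21 for LPS in control cells, −0.01 for knockout over control with LPS and 0.01 without.

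The Rpl30 row was at 8.66 FPKM in knockout cells with LPS and 14.6 without, against 16.2 in control cells with LPS and 7.72 without. Rpl30 is a protein at the interface of the subunits that also binds selenoprotein mRNAs. Its ratio of LPS over no LPS was 0.594 (interval 0.359 to 0.953) in knockout cells and 2.09 (interval 1.40 to 3.17) in control cells, opposite directions that no replicate checks. The copy row, Gm12191, was at 1117 FPKM in knockout cells with LPS and 1072 without, against 1205 in control cells with LPS and 1107 without. Summed, the rows gave log2 ratios for LPS of 0.05 in knockout cells and 0.13 in control cells, and for knockout over control of −0.12 with LPS and −0.04 without.

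Rpl34 differed from these 3 in that the member row held most of the signal. It was at 959.7 FPKM in knockout cells with LPS and 885 without, against 974 in control cells with LPS and 964 without. Its copy row, Rpl34-ps1, was at 259 FPKM in knockout cells with LPS and 201 without, against 308 in control cells with LPS and 63.8 without. The Rpl34 row had the lowest LPS ratio in control of the other 74 core members (0.01), and with the copy row added the value was 0.32. With the copy row added its ratio for LPS in knockout cells was 0.17, and for knockout over control −0.07 with LPS and 0.08 without, where the Rpl34 row alone gave −0.12 without LPS.

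**Figure D2:**
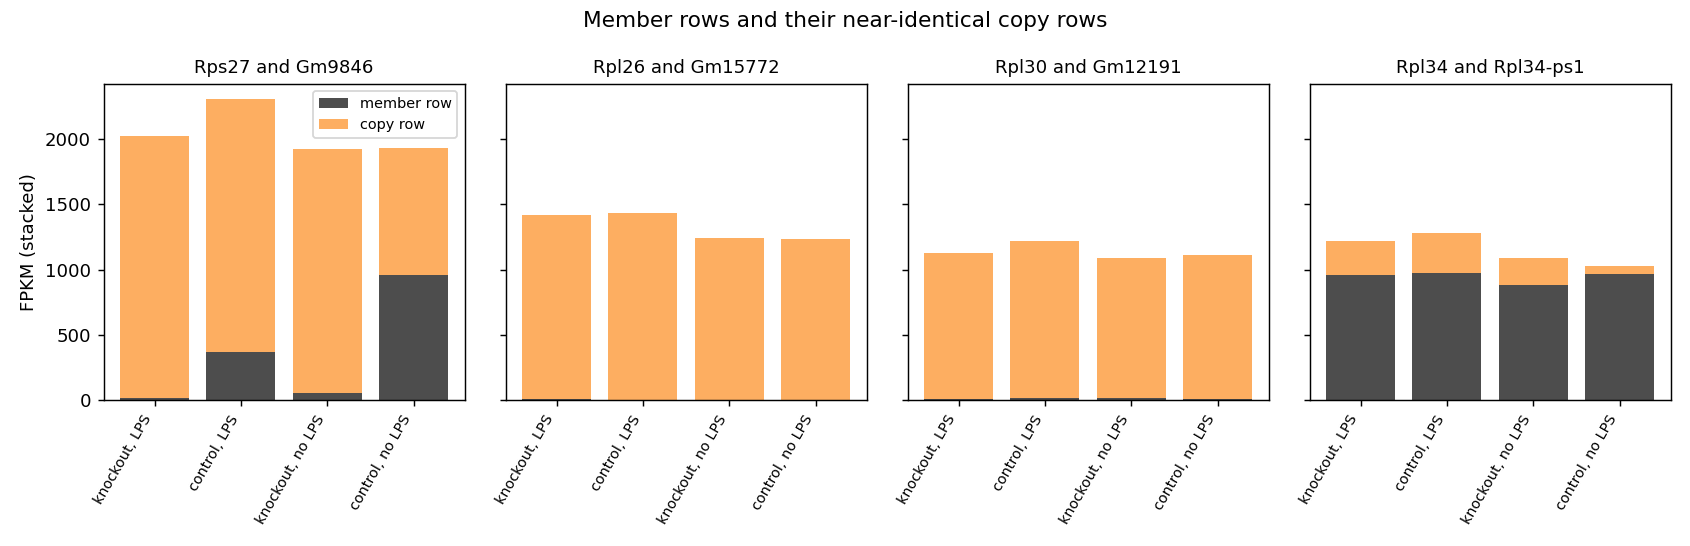
Stacked FPKM of 4 ribosomal protein rows (dark) and of their near-identical intronless copy rows (orange) in each library. The dark part of the Rps27 bar ranges from 18.4 to 962 FPKM while the whole bar stays between 1926 and 2308 FPKM; for Rpl26 and Rpl30 nearly the whole bar is the copy row.

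Copies were common in the family, while expressed copy rows were few. Of 83 members with a coding sequence in GENCODE, 78 had at least 1 other annotated transcript with 90% identity or more over at least 80% of the coding sequence, with a median of 8 copies and a maximum of 77 for Rpl21. Of 1005 such copies, 24 had a row in the files. Only the 4 copy rows named above exceeded 40 FPKM in a library; BC004004, a protein-coding gene with a copy of Rpl21, was at 32.2 to 33.7 FPKM, and the other copy rows reached at most 6.98 FPKM. Of the 50-base windows of the transcript, 98.6% occurred in another annotated transcript for Rps27, 71.3% for Rpl26, 47.8% for Rpl30 and 37.9% for Rpl34, and the median member had 49.0%. Rpl9 had 93.3% and Rpl10 92.1%, and both rows were at 867 to 1256 FPKM in all libraries. Unlike Rps27, Rpl26, Rpl30 and Rpl34, neither has a copy with a row in the files. Whether the share bears on the values was not tested.

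LPS went with slightly higher FPKM of nearly every ribosomal protein gene. In control cells, 80 of the 81 members with at least 5 FPKM in 1 of the libraries were higher with LPS (57.1% of all 8050 rows tested), with a median log2 ratio of 0.19 against 0.11 over all rows. In knockout cells, 76 of 82 were higher (57.2% of all 8098 rows), with a median of 0.17 against 0.12 over all rows. The direction depends on the scaling of the libraries: with upper-quartile scaling the medians were −0.11 in knockout cells and −0.05 in control cells, and with equal sums of FPKM −0.47 in knockout cells and −0.37 in control cells. Upper-quartile scaling put the median of all rows at −0.16 in knockout cells and −0.15 in control cells. Relative to the median of all rows, the members' median was higher by 0.05 in knockout cells and 0.08 in control cells as deposited, and by 0.04 to 0.09 under the other scalings. Other abundant rows (872 at 100 FPKM or more on average) had a median of 0.48 in knockout cells and 0.44 in control cells. The members' median was the lower one, but this average includes the LPS libraries. Genes high only with LPS, such as Il1b, thus enter the set and raise its median, so the comparison does not decide how the members rank.

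A 2-fold difference with LPS was rare. In control cells 0 members were at least 2-fold higher (12.3% of all rows) and 1 was at least 2-fold lower (6.5% of all rows), the Rps27 row. In knockout cells 1 was higher (13.7% of all rows), the Rpl26 row, and 1 was lower (7.74% of all rows), again the Rps27 row. Both have a copy row in the files, as do 21 members in all, and with the copy rows added each of these counts was 0. Neutrophil marker genes, of which 4 of 7 were at 1 FPKM or more in each LPS library, summed to 131 FPKM in knockout cells with LPS and 31.4 without, against 242 in control cells with LPS and 41.4 without; their part in these values was not tested.

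Rpl24 had the largest LPS ratio of the 74 core members left when Rps27, Rpl26 and Rpl30 are set aside. This large-subunit protein, which forms a bridge to the small subunit, was at 1106 FPKM in knockout cells with LPS and 654 without, against 1084 in control cells with LPS and 679 without. Both LPS libraries lay above both libraries without LPS. The FPKM ratio was 1.69 (interval 1.62 to 1.77) in knockout cells and 1.60 (interval 1.54 to 1.66) in control cells. No other row of the files had annotated exons overlapping those of Rpl24, and its 5 annotated copies had no row in the files, so their levels were not measured.

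Rps9, Rpl19, Rplp2 and Rps20 came next in control cells. Rps9, an early-assembling small-subunit protein, was at 1358 FPKM in knockout cells with LPS and 1047 without, against 1414 in control cells with LPS and 1039.7 without. Rpl19 was at 1547 FPKM in knockout cells with LPS and 1186 without, against 1454 in control cells with LPS and 1099 without. For both genes each LPS library exceeded each library without LPS, with log2 ratios of 0.37 for Rps9 and 0.38 for Rpl19 in knockout cells and 0.44 for Rps9 and 0.40 for Rpl19 in control cells. Rplp2, partner of Rplp1 in the stalk, was at 1179.8 FPKM in knockout cells with LPS and 1029 without, against 1404 in control cells with LPS and 1074 without, so its LPS ratio was 0.20 in knockout cells and 0.39 in control cells. Rps20 had LPS ratios of 0.28 in knockout cells and 0.35 in control cells. These 4 genes, like Rps15a, Rpl18, Rpl9 and Rpl10, were named after their values were seen.

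In control cells the lowest LPS ratios of the 74, after Rpl34, were those of Rpl36a (0.03) and Rpl41 (0.04), both below 0 under each of the 3 other scalings. Rpl41 was at 1805 FPKM in knockout cells with LPS and 1794 without, against 1724 in control cells with LPS and 1679 without. Rps21 was the lowest of the 74 in knockout cells, at 839 FPKM with LPS and 862 without, against 982 in control cells with LPS and 860.5 without. Its LPS ratio was thus −0.04 in knockout cells and 0.19 in control cells.

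The subunits had like medians. The median log2 ratio for LPS was 0.17 in knockout cells and 0.19 in control cells for the small subunit, and 0.16 in knockout cells and 0.19 in control cells for the large subunit. For the 3 stalk proteins it was 0.20 in knockout cells and 0.27 in control cells. Over the 74 core members, the ratios in knockout cells and in control cells, which share no library, had a Pearson r of 0.829 and a Spearman rho of 0.773 across genes, which are not independent replicates; without Rpl24, r was 0.746. The points share gene length and the sequence copies described above. The ratio was lower in knockout cells for 48 of these members and higher for 26, with a median difference of −0.02 and a range of −0.23 to 0.11. No such count was made over all rows, whose LPS medians were 0.12 in knockout cells and 0.11 in control cells. The difference also depends on the scaling, since upper-quartile scaling gave all members medians of −0.11 in knockout cells and −0.05 in control cells.

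**Figure D3:**
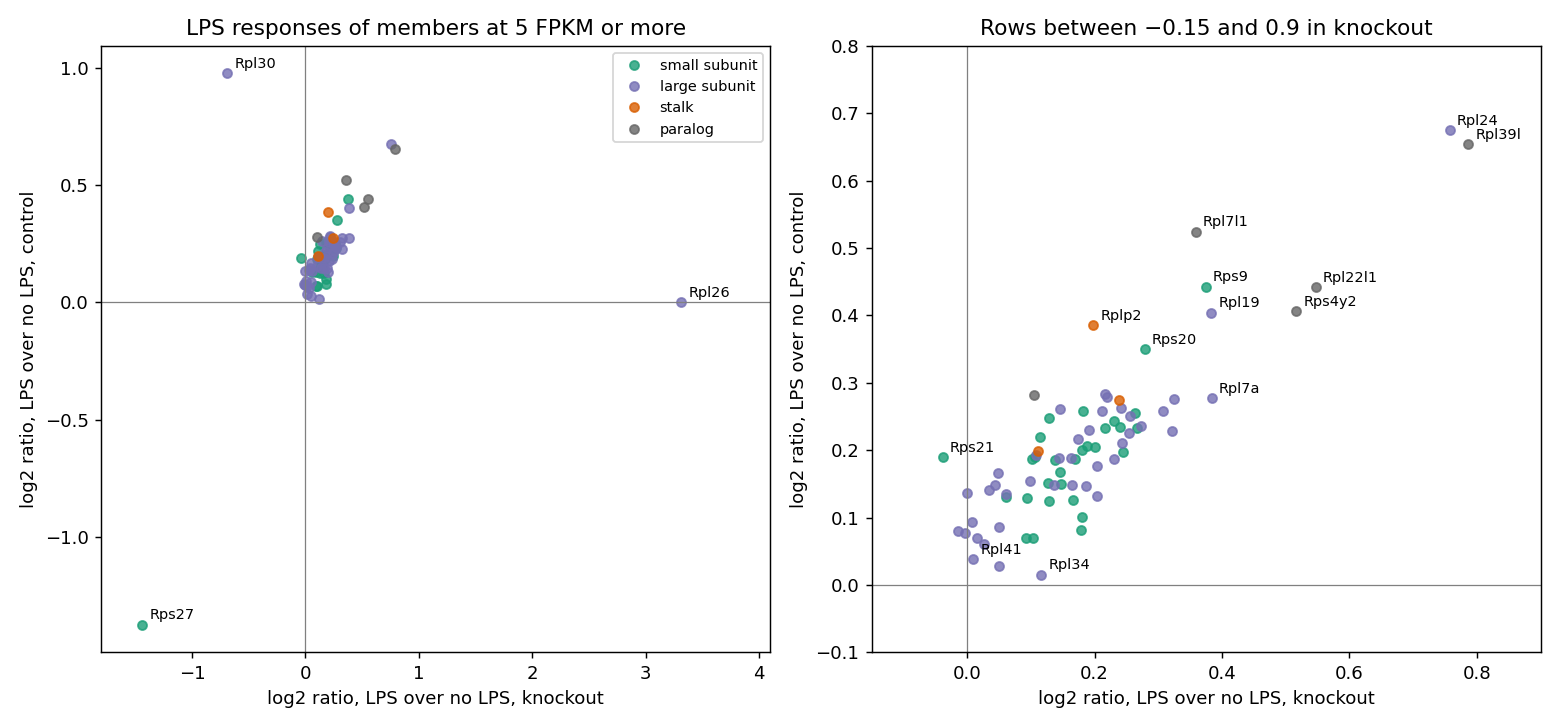
Log2 ratio of (FPKM + 1), LPS over no LPS, in knockout cells (horizontal axis) and control cells (vertical axis) for members at 5 FPKM or more in any library; the right panel enlarges the main cluster. Most members lie between 0 and 0.4 on both axes, Rpl24 and Rpl39l lie highest in the cluster, and Rps27, Rpl26 and Rpl30 lie away from it.

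Of the paralogs, which replace a core protein in some tissues, those that reached 5 FPKM had a higher median LPS ratio than the core. They were 5 of the 7, with a median log2 ratio of 0.52 in knockout cells and 0.44 in control cells. The core had 0.17 in knockout cells and 0.19 in control cells. The paralog median rests on few rows, and Rpl39l passed the minimum only through its LPS libraries. Rps27l, the most abundant paralog, had 0.105 in knockout cells, below the core median, and 0.28 in control cells. The other tested paralogs were above the core median in both genotypes. Rpl22l1 was at 42.9 FPKM in knockout cells with LPS and 29.0 without, against 41.4 in control cells with LPS and 30.2 without. Its ratio was 1.48 (interval 1.14 to 1.91) in knockout cells and 1.37 (interval 1.09 to 1.72) in control cells. The intervals of Rpl22, the core protein that represses Rpl22l1 expression in mouse cells, took in 1 in both genotypes, at 0.990 (interval 0.825 to 1.19) in knockout cells and 1.06 (interval 0.906 to 1.23) in control cells.

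Rpl7l1, a paralog of Rpl7 linked to ribosome assembly, was at 66.1 FPKM in knockout cells with LPS and 51.3 without, against 63.2 in control cells with LPS and 43.6 without. Rpl39l, which in mouse is best known from male germ cells, was at 5.19 FPKM in knockout cells with LPS and 2.59 without, against 6.48 in control cells with LPS and 3.75 without. Both were higher in each LPS library than in either library without LPS, although Rpl39l lies near the 5 FPKM minimum and its interval in knockout cells, 1.07 to 3.82, is wide. Rps27l, a p53 target, was at 360 FPKM in knockout cells with LPS and 335 without, against 346 in control cells with LPS and 284 without. Rps4y2 was at 12.3 FPKM in knockout cells with LPS and 8.33 without, against 12.4 in control cells with LPS and 9.08 without. Rpl3l, expressed in striated muscle, did not pass 0.597 FPKM, and Rpl10l, a testis paralog of Rpl10, was listed at 0 in every library.

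Members with known roles outside the ribosome belong to the core themselves, so their LPS ratios lie within its range by definition. In knockout cells they lay on both sides of the core median of 0.17. There Rpl22, Rpl13a and Rpl11 held ranks 2, 3 and 5 from the lowest of the 74 core members without Rps27, Rpl26 and Rpl30. Rpl13a, which in human monocytic cells leaves the ribosome as part of a translation-silencing complex after interferon-gamma, was at 686 FPKM in knockout cells with LPS and 687 without, against 746 in control cells with LPS and 707 without. Its log2 ratio for LPS was −0.003 in knockout cells and 0.08 in control cells. Rps3, a partner of NF-κB p65, had LPS ratios of 0.14 in knockout cells and 0.19 in control cells on the log2 scale. For Rpl5 the values were 0.31 in knockout cells and 0.26 in control cells, and for Rpl11, which with Rpl5 binds Mdm2, 0.01 in knockout cells and 0.09 in control cells. Rps6, the substrate of the S6 kinases, had 0.27 in knockout cells and 0.23 in control cells, and Rps19, mutated in Diamond-Blackfan anaemia in humans, 0.09 in knockout cells and 0.13 in control cells. Rps27a, made as a fusion with ubiquitin, had 0.18 in knockout cells and 0.26 in control cells. None of these reached 1.5-fold, which 3 members exceeded upwards in knockout cells (25.4% of all rows) and 3 in control cells (23.1% of all rows), and downwards 2 in knockout cells (17% of all rows) and 1 in control cells (15.1% of all rows).

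Ratios of knockout over control were small for most members, and the counts at 2-fold were too small to set apart from the shares of all rows. Without LPS, 0 of 80 members were at least 2-fold higher in knockout cells (0.49% of all 7762 rows) and 1 was at least 2-fold lower (0.412% of all rows), the Rps27 row. With LPS, 1 of 82 was higher (0.493% of all 7509 rows), the Rpl26 row, and 1 was lower (0.4% of all rows), the Rps27 row. At 1.5-fold, 1 member was higher with LPS (2.86% of all rows) and 1 without (1.75% of all rows), and 2 were lower with LPS (1.69% of all rows) and 1 without (1.37% of all rows), all of them among Rps27, Rpl26 and Rpl30. With the copy rows added, none of the members was at 2-fold in either comparison. The median log2 ratio was 0.01 with LPS and 0.03 without, against 0.09 with LPS and 0.07 without over all rows, and it was below 0 under each of the 3 other scalings, at −0.14 with LPS and −0.08 without for upper-quartile scaling. Relative to the median of all rows it was −0.08 with LPS and −0.04 without, and these differences stayed between −0.08 and −0.04 under the other scalings. Above 0 were 44 of 82 members with LPS (68.1% of all rows) and 53 of 80 without (68.9% of all rows). Above the median of all rows were 14 of 82 members with LPS and 24 of 80 without. Under the other scalings these counts were 10 to 13 with LPS and 22 to 24 without.

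Apart from Rps27, Rpl26 and Rpl30, the core ratios of knockout over control ran from −0.25 (Rplp2) to 0.24 (Rpl7a) with LPS and from −0.12 (Rpl34) to 0.15 (Rpl18) without. Rpl7a, a large-subunit protein, was at 927 FPKM in knockout cells with LPS and 710.0 without, against 784 in control cells with LPS and 647 without. Rps4x was at 983 FPKM in knockout cells with LPS and 869 without, against 859 in control cells with LPS and 812 without. Both were higher in knockout cells at either LPS state, while Rplp2 and Rps21 were lower in knockout cells with LPS, Rps21 by 0.23 on the log2 scale. Counting intervals of the FPKM ratio with LPS were 1.14 to 1.23 for Rpl7a and 0.816 to 0.866 for Rplp2. Of the paralogs, Rpl7l1 had a ratio of 0.06 with LPS and 0.23 without, and Rps27l 0.06 with LPS and 0.23 without. Rpl39l had −0.27 with LPS, at levels near the minimum. Stromal marker genes, 8 of 9 of them at 1 FPKM or more in every library, summed to 360 FPKM in knockout cells with LPS and 313 without, against 628 in control cells with LPS and 593 without, and the 8 macrophage markers to 9526 FPKM in knockout cells with LPS and 6282 without, against 10822 in control cells with LPS and 8165 without. Their part in the genotype values was not tested.

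**Figure D4:**
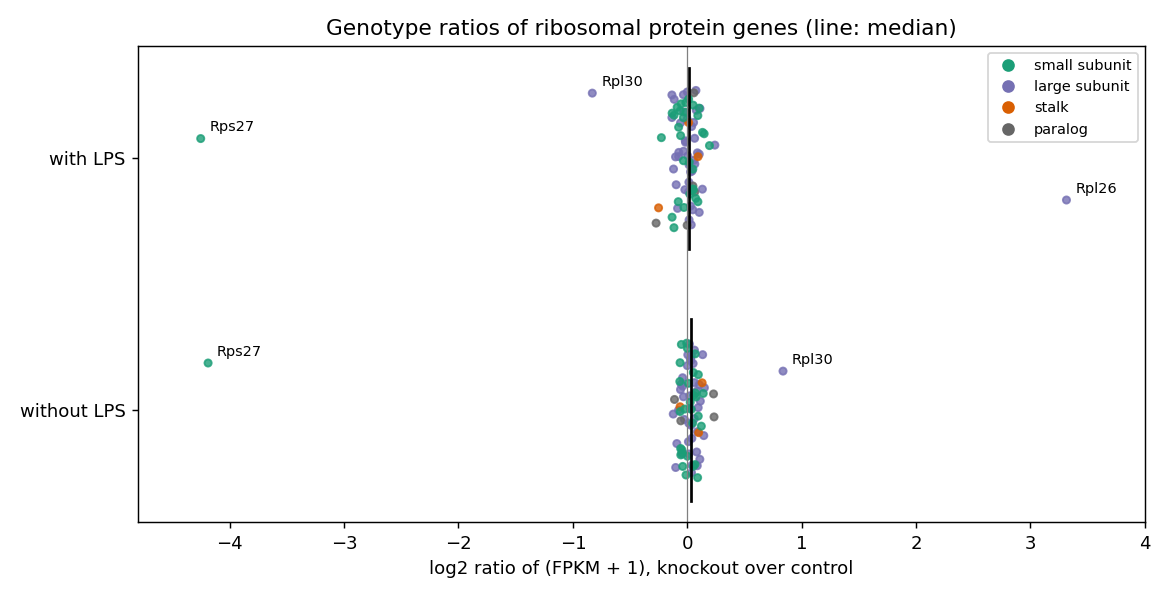
Log2 ratio of (FPKM + 1), knockout over control, of each tested member with LPS (upper row) and without (lower row), coloured by subunit, with the median as a vertical line and points spread vertically for sight only. All rows except Rps27, Rpl26 and Rpl30 lie between −0.27 and 0.24, and Rpl26, listed at 0 in control cells with LPS, is placed by the pseudocount.

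Translation factors and other genes mostly of the TOP class had a median log2 ratio for LPS of 0.20 in knockout cells and 0.22 in control cells, with 1 of 19 at least 2-fold higher in knockout cells (13.7% of all rows) and 0 of 19 in control cells (12.3% of all rows). That gene was Hnrnpa1, an RNA-binding protein, at 68.2 FPKM in knockout cells with LPS and 33.1 without, against 50.2 in control cells with LPS and 26.4 without.

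Of the genes that control translation initiation, 2 of 16 reached 2-fold upwards with LPS in knockout cells (13.7% of all rows) and 2 lower (7.74% of all rows). In control cells 2 of 15 were higher (12.3% of all rows) and 2 lower (6.5% of all rows), so the shares of higher genes lay near those of all rows. Larp1, which binds the cap and the TOP motif of ribosomal protein mRNAs, was at 91.2 FPKM in knockout cells with LPS and 22.2 without, against 83.8 in control cells with LPS and 21.7 without. Eif2ak2 (PKR), the interferon-induced kinase of eIF2α, was at 55.1 FPKM in knockout cells with LPS and 17.4 without, against 42.6 in control cells with LPS and 15.3 without. Both were more than 2-fold higher with LPS in each genotype. Pdcd4, an inhibitor of eIF4A, was at 0.852 FPKM in knockout cells with LPS and 5.31 without, against 1.20 in control cells with LPS and 6.08 without. Eif2ak3 (PERK) was at 1.59 FPKM in knockout cells with LPS and 5.21 without, against 1.78 in control cells with LPS and 4.64 without, and it entered the count in knockout cells only because its control values lie under the 5 FPKM minimum. Eif4ebp2, an eIF4E inhibitor, was at 10.995 FPKM in knockout cells with LPS and 19.8 without, against 9.44 in control cells with LPS and 19.9 without, and it passed 2-fold in control cells.

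Of the ribosome biogenesis genes, 1 of 39 was at least 2-fold higher with LPS in knockout cells (13.7% of all rows) and 3 of 37 in control cells (12.3% of all rows). In each genotype 1 was lower (7.74% of all rows in knockout cells and 6.5% in control cells), with medians of 0.26 in knockout cells and 0.39 in control cells. Rcl1, a processing factor of 18S rRNA, was at 33.2 FPKM in knockout cells with LPS and 6.93 without, against 34.0 in control cells with LPS and 7.18 without. Rrs1, needed for large-subunit assembly, had LPS ratios of 0.99 in knockout cells and 1.38 in control cells. Myc, a transcription factor that drives ribosome production, was the 1 lower gene, at 3.17 FPKM in knockout cells with LPS and 18.2 without, against 3.62 in control cells with LPS and 13.8 without.

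The 76 mitochondrial ribosomal proteins, which make up a separate ribosome, had medians below 0, at −0.13 in knockout cells and −0.05 in control cells for LPS, and the sign of the median of the cytosolic members turns with the scaling as given above. Mrpl52 was the 1 gene of this group at least 2-fold higher in each genotype (13.7% of all rows in knockout cells and 12.3% in control cells), at 386 FPKM in knockout cells with LPS and 189.8 without, against 359 in control cells with LPS and 150.2 without. At least 2-fold lower were 2 genes in knockout cells (7.74% of all rows) and 0 in control cells (6.5% of all rows). Mrps35 was at 7.07 FPKM in knockout cells with LPS and 15.7 without, against 9.33 in control cells with LPS and 14.6 without, and Mrpl41 at 3.25 FPKM in knockout cells with LPS and 7.50 without, against 4.39 in control cells with LPS and 6.32 without. By genotype, none of the genes in these 4 groups reached 2-fold with or without LPS. Of all rows, 0.493% were higher and 0.4% lower with LPS, and 0.49% higher and 0.412% lower without. At such shares the absence of calls says little about these groups.

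**Figure D5:**
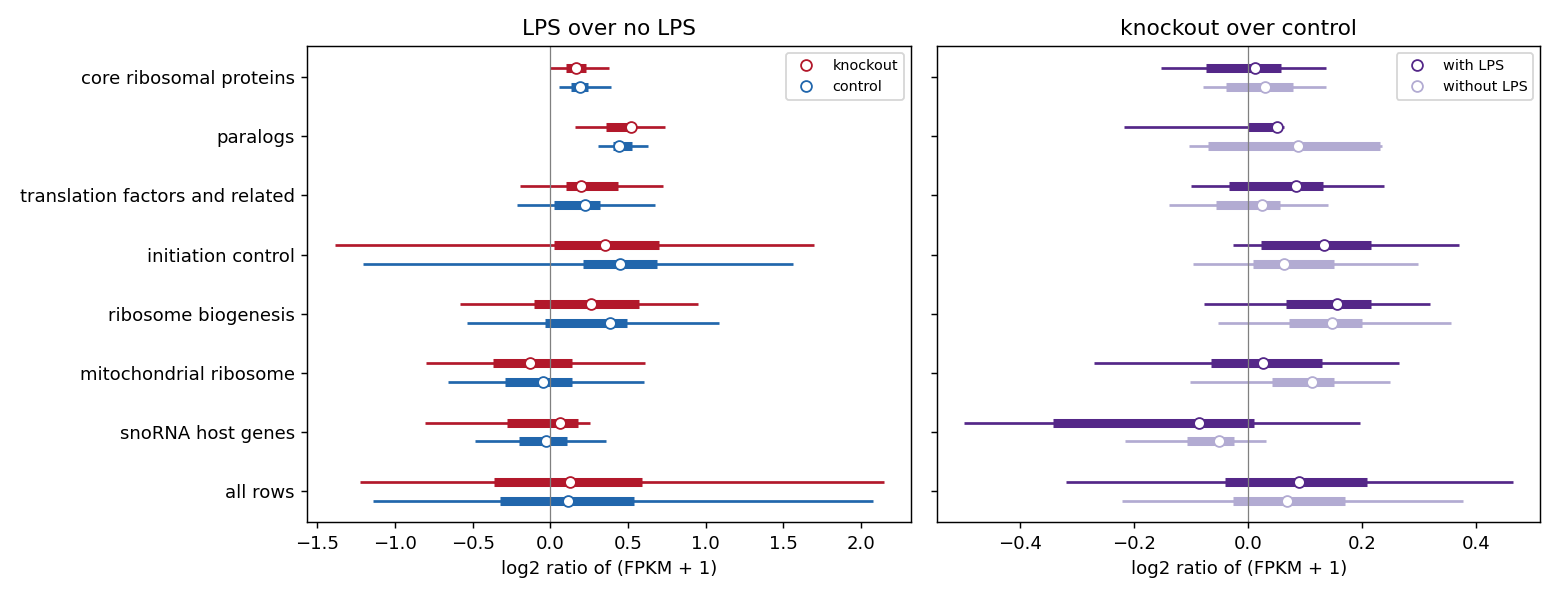
Median (circle), middle 50% (thick bar) and central 90% (thin bar) of the log2 ratio of (FPKM + 1) for ribosomal protein genes, related gene groups and all rows at 5 FPKM or more, for LPS over no LPS (left) and knockout over control (right). The core ribosomal proteins have LPS medians of 0.17 in knockout cells and 0.19 in control cells, and their bars are much shorter than those of all rows.

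Promoters of the family were compared with those of other genes because Spi-C belongs to the ETS family, whose members bind around GGAA. In the RefSeq promoter table (GRCm38.p6, a window around each start), 63 of the 84 members had an entry. Searched on both strands, CCGGAAGT, a sequence class bound by GABP and other ETS factors, was found in 12 of the 63 (19%) against 4.3% of all 27025 genes in the table. GAGGAAGT, of the type bound by the PU.1 subfamily to which Spi-C belongs, was found in 3 (4.8%) against 3.7% of all genes. Both motifs share the letters GGAAGT and neither contains the other. A run of at least 8 C or T within 30 bases of a start was present in 35 of the 63 (55.6%) against 25.8% of all genes.

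The windows from 100 bases before to 20 bases after an annotated start of Rpl19 (chr11:98026610-98026729, plus strand), Rpl26 (chr11:68901466-68901585, plus strand) and Rpl24 (chr16:55966175-55966294, plus strand) show 1 promoter each with the first motif on either strand, in capitals, and 1 without it.

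Rpl19: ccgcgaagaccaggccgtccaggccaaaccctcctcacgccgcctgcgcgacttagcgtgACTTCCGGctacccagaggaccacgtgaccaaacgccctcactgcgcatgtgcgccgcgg
Rpl26: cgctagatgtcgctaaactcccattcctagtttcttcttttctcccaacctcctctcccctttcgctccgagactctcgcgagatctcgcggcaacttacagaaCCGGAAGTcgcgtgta
Rpl24: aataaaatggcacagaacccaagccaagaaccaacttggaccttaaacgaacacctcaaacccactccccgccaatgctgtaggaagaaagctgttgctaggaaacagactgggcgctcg

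Core members with CCGGAAGT had a median log2 ratio of knockout over control of 0.04 with LPS and 0.07 without, against −0.02 with LPS and 0.01 without for core members lacking it. For LPS the medians were 0.13 in knockout cells and 0.15 in control cells with the motif, against 0.16 in knockout cells and 0.19 in control cells without it. The medians rest on 10 or 11 members with the motif, Rpl26 among them, and 45 without it, Rps27 among them. The 3 core members with GAGGAAGT had medians of knockout over control of 0.03 with LPS and 0.06 without. Core members lacking GAGGAAGT had −0.001 with LPS and 0.03 without. For LPS the GAGGAAGT medians were 0.05 in knockout cells and 0.08 in control cells, against 0.16 in knockout cells and 0.19 in control cells without it. No test of these differences was run. A match describes letters in the promoter and not binding.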

How the data were processed

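RNA of 4 cultures of mouse bone marrow-derived macrophages was measured, 1 library per group. Per the labels' protocols, the RNeasy Mini Kit was used for RNA and the TruSeq stranded mRNA kit for libraries. Per the submitters' processing notes, the tools were Cuffnorm 2.2.1, TopHat2 2.0.13, SAMtools 0.1.19 and Bowtie2 2.2.3, with mm10. Settings, annotation and the handling of reads with several matches are not given in the sources used here. Deposited values were FPKM per gene, normalised by the authors, with the same 23284 rows in each file and no read counts, and were used without further scaling.

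Ratios of (FPKM + 1) between 2 libraries were taken on the log2 scale with Python 3.11.15, pandas 2.3.3 and numpy 2.4.6; this scale understates differences of low genes. Rows with 5 FPKM or more in either library of a comparison were used, and counts were made at 2-fold. Groups have no replicate and no test was run; the single residual degree of freedom of an additive fit over the 4 libraries is the difference of the LPS responses. Depth was estimated from the steps of FPKM values under 0.3 and 373 single-transcript genes (effective length 210 bases below the exonic length), for which 76.7% of values came out whole within 0.1 fragments; the median half-width of the members' counting intervals was 0.053 to 0.061 on the log2 scale. Copies were found with BLAST+ 2.17.0 against GENCODE vM21 transcripts (at least 90% identity over at least 80% of the coding sequence). No genome sequence was used here, so copies without an annotated transcript were not searched. Coding sequences come from GENCODE vM21 and promoters from RefSeq (GRCm38.p6). The counting of ratios and the depth estimate were tested on simulated data.

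Named were, in each comparison, the 3 highest and 3 lowest members, members at 2-fold or under 5 FPKM, the 5 highest and 5 lowest by mean, the paralogs, members known outside the ribosome and up to 4 genes per related list. The members and lists were chosen with earlier results of these data known. Alternatives covered the pseudocount, the minimum, the threshold, the scaling, the paralogs and the copy rows. Some items withheld for evaluation are not reported here.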

Additional observations from a re-analysis of the deposited data

Results flagged for a closer look

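The LPS response of the Rpl30 row pointed in opposite directions in the genotypes, with a log2 ratio of (FPKM + 1) of −0.69 in knockout cells and 0.98 in control cells. The difference was not tested, since each group has 1 library. The row lay between 7.72 and 16.2 FPKM, and with the copy row Gm12191 added the values were 0.05 in knockout cells and 0.13 in control cells.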

How the results depend on the processing

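No paired analysis was possible because the groups compared share only 1 replicate number. Each value below is as in the report with 1 choice changed; scaling to equal sums and the share with copy rows were added after seeing the data. The members' median log2 ratio was below 0 with upper-quartile scaling (LPS in knockout −0.11, LPS in control −0.052, knockout over control with LPS −0.14 and without −0.083) and with equal sums (−0.47, −0.37, −0.14 and −0.042 in the same order). With median-ratio scaling the genotype medians were −0.030 with LPS and −0.011 without. Adding copy rows turned the Rps27 LPS ratios to 0.073 in knockout cells and 0.26 in control cells and the Rpl26 ratio of knockout over control with LPS to −0.011. All counts of 1 at 2-fold became 0 with copy rows added or with copy-bearing members left out, and the counts of Rpl26 became 0 at a minimum of 20 FPKM. At 1.5-fold, 3 members were higher and 2 lower for LPS in knockout, 3 higher for LPS in control, 2 lower for knockout over control with LPS and 1 higher without. A pseudocount of 0.1 FPKM gave 1 higher for LPS in control, and equal sums gave 2 lower for LPS in knockout. The members' share was 8.84% in knockout cells with LPS, 12.3% in knockout cells without, 9.90% in control cells with LPS and 12.98% in control cells without when small RNA genes left the total. It was 14.4%, 17.2%, 15.8% and 18.1% in that order without the 100 highest other rows, and 9.10%, 12.7%, 10.2% and 13.02% with copy rows added. Of 783 alternative values for named members, 125 differed in sign from the reported value, 119 of them among the 315 values under the 3 scalings and 6 with copy rows added; 3 of these were of values at 2-fold. The causes were not tested beyond what each change itself does. Depth limits rows under about 20 FPKM, such as Rpl30 and Rpl39l, and no value here has a replicate.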

Other observations

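Host genes of small nucleolar RNAs, many of which carry a TOP motif like the ribosomal protein mRNAs, had medians near 0 for LPS, at 0.06 in knockout cells and −0.02 in control cells. Of 12 at 5 FPKM or more, 0 were at least 2-fold higher in knockout cells (13.7% of all rows) and 0 in control cells (12.3% of all rows), and 1 was at least 2-fold lower in knockout cells (7.74% of all rows) and 0 in control cells (6.5% of all rows). Snhg12 was at 9.34 FPKM in knockout cells with LPS and 20.2 without, against 14.7 in control cells with LPS and 23.5 without. Gas5, a growth-arrest transcript, was at 8.56 FPKM in knockout cells with LPS and 13.7 without, against 10.9 in control cells with LPS and 14.3 without. Both were lowest in knockout cells with LPS. Snhg6 went the other way, at 69.2 FPKM in knockout cells with LPS and 61.7 without, against 92.4 in control cells with LPS and 63.3 without. Snhg8 was at 7.62 FPKM in knockout cells with LPS and 6.16 without, against 6.20 in control cells with LPS and 7.21 without. The list includes 5 protein-coding hosts that are ribosomal protein or elongation factor genes.

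Annotated exons of 33 other rows overlapped those of 25 ribosomal protein genes. For 13 of these genes an overlapping row lay on the opposite strand, and no source used here says whether the authors' counting used strand.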
